A study of Mus musculus with 4 samples.

Results

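The aminoacyl-tRNA synthetase genes were examined in 3D-cultured mouse mammary cells treated with baicalin, a flavonoid of Scutellaria roots. Members were the genes of the deposited table whose symbol is a capital letter, that of the amino acid, followed by "ars", with or without a final 1, 2, a or b, plus Eprs. This rule found 37 of the 54446 listed genes, and symbols ending in 2 formed the mitochondrial group of 17 genes while the other 20 formed the cytosolic group. All 37 had a value above 0 in all 4 libraries and were kept among the 17787 genes compared. The cells came from mammary glands of wild type C57BL/6 mice, for which the labels give no age, were sorted by flow cytometry as basal or luminal, and were grown in Matrigel with insulin-containing supplement and epidermal growth factor. The basal group and the luminal group each had 1 library of cells given DMSO, the vehicle, and 1 library of cells given 100 μM baicalin, so there are no replicates and no test between conditions was made. How many animals or cultures went into a library is not given in the sources used here.

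Values are FPKM, fragments scaled by exon length and by the depth of the library. The length covers all annotated exons of a gene, whether or not they were expressed, so levels compared between genes are approximate. Between 19356082 and 20648782 fragments lay behind each library, and between 73 and 14999 fragments behind each synthetase value. The labels were checked against marker genes. All 10 basal markers were higher in the libraries labelled luminal than in those labelled basal, with DMSO and with baicalin, and all 10 luminal markers were lower there. The summed basal list had 1761 FPKM with DMSO and 479 FPKM with baicalin in the libraries labelled basal, against 5404 and 7199 FPKM in those labelled luminal. The summed luminal list had 4273 and 2735 FPKM in the libraries labelled basal, against 1338 and 1056 FPKM in those labelled luminal. "Basal" and "luminal" are therefore used below as library labels only. Markers of other cells were low, with sums of at most 10.4 FPKM for 6 fibroblast genes, 3.19 FPKM for 4 endothelial genes and 9.03 FPKM for 5 immune genes, and Ptprc, the pan-leukocyte marker, had at most 0.0138 FPKM. In bulk RNA, fewer cells of a type and less RNA per cell cannot be told apart, and the part that cell makeup plays in the changes below was not tested.

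Each aminoacyl-tRNA synthetase joins an amino acid to its tRNA, which is the step that makes the genetic code true. Mammalian cells carry a cytosolic set for the proteins made on cytosolic ribosomes and a second, nuclear-encoded set that is imported into mitochondria for the few proteins encoded by mitochondrial DNA. Glycine and lysine are exceptions, since Gars and Kars each serve both compartments, and mitochondrial glutaminyl-tRNA is made by way of glutamyl-tRNA and an amidotransferase. Many cytosolic synthetase genes are known targets of ATF4, the transcription factor of the integrated stress response, which binds with C/EBP partners to a C/EBP-ATF response element.

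The core of that element, TGATGNAA, was searched on both strands in the RefSeq promoter windows of GRCm38, each of 300 bases with 250 before and 50 after the annotated start. A window was found for 27 of the 37 members, 13 cytosolic and 14 mitochondrial. The motif was present for 5 of the 13 cytosolic genes (Aars, Gars, Iars, Tars and Yars) and for 0 of the 14 mitochondrial genes. Of all 32851 windows, 3.97% held it. Matches are shown here so that the changes of these 5 genes, given below, can be read beside their promoters, and the capitals mark the motif or its reverse complement.
Aars, chr8:111033840-111033869, plus strand: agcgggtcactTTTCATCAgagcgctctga
Iars, chr13:49682126-49682155, plus strand: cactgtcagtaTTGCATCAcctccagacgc
Yars, chr4:129189895-129189924, plus strand: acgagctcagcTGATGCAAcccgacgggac
Gars, chr6:55037881-55038000, plus strand: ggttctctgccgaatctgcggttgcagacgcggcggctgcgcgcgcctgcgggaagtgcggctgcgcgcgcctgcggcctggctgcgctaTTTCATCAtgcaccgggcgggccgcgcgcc
Tars, chr15:11399659-11399778, minus strand: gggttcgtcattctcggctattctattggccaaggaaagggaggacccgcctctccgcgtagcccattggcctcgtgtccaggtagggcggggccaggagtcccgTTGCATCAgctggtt
The stretches of Gars and Tars are the 120 bases that end just before the annotated start. Counted from 0 at the RefSeq start, the match of Gars begins at position -30 and that of Tars at position -15, while those of Iars and Yars begin at positions 7 and 3. The match shown for Aars begins at position 9, and a longer Aars transcript of the GENCODE annotation covers it. A match is a description of the letters in the window and does not show binding.

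Cytosolic synthetases were the more abundant set in every library. Their median level was 34.3 FPKM with DMSO and 33.4 FPKM with baicalin in the libraries labelled basal, and 24.5 and 30.5 FPKM in those labelled luminal. The mitochondrial medians were 4.46, 4.20, 3.50 and 3.78 FPKM in the same order. Nars, which charges tRNA with asparagine (chromosome 18, 64499647 to 64516652, GRCm38), had the highest level of all 37 genes in each library, with 126 and 170 FPKM under the basal label and 83.9 and 148 FPKM under the luminal label. Sars, Gars and Rars followed in every library but the luminal DMSO library. Farsa, the alpha subunit of phenylalanyl-tRNA synthetase, and Yars, the tyrosyl enzyme, were among the lowest cytosolic members in each library, and Cars had the lowest value, 8.57 FPKM, in the luminal DMSO library. Farsb, which encodes the other subunit of the same enzyme, stood at 34.1 to 40.0 FPKM against 8.80 to 11.2 FPKM for Farsa. The annotated exons used for scaling hold 2620 bases for Farsb and 4538 for Farsa. In the basal DMSO library the fragments were 2081 and 1010. In the mitochondrial set Iars2 and Lars2 had the highest levels with DMSO and Pars2 the lowest, at 1.14 to 1.69 FPKM.

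**Figure D1:**
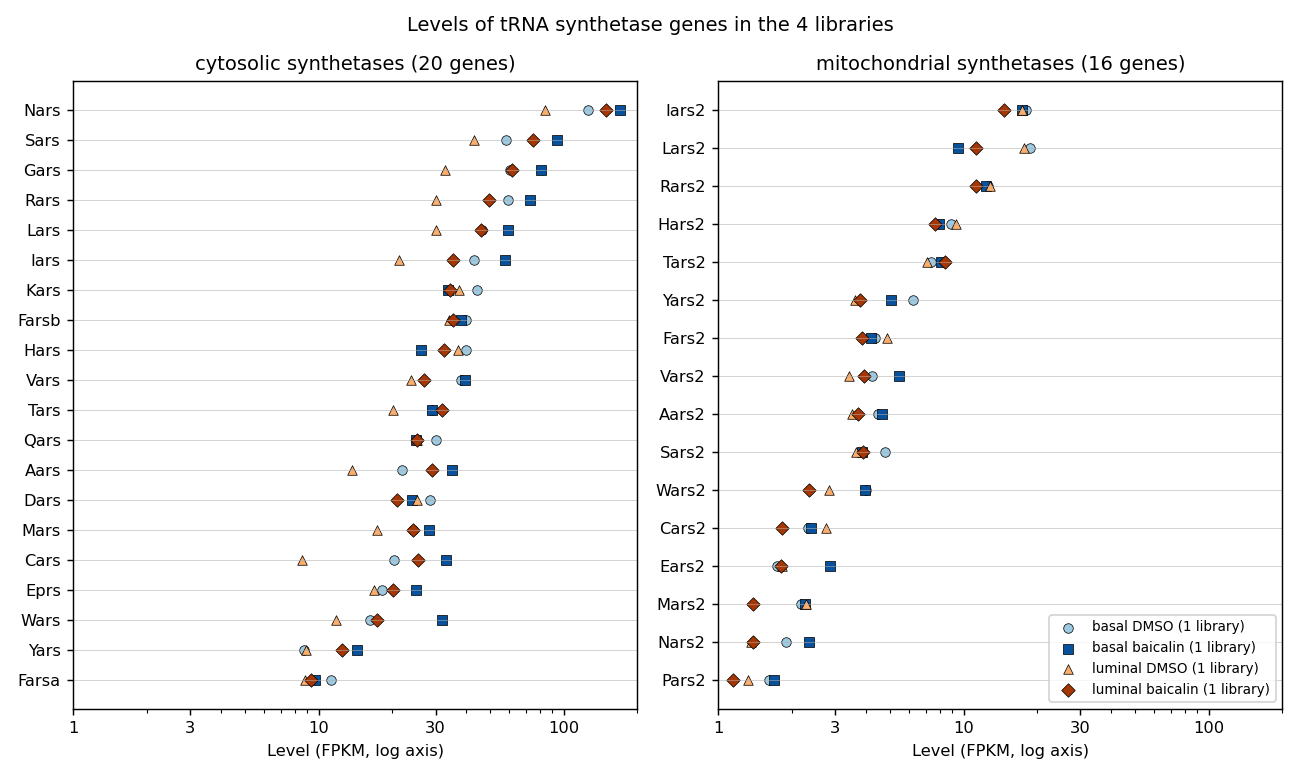
Levels of 20 cytosolic and 16 mitochondrial synthetase genes as FPKM on a log axis, with 1 point per library and no error bars because each condition has 1 library. Most cytosolic genes lie between 10 and 100 FPKM, many with their lowest point in the luminal DMSO library, while mitochondrial genes lie between 1.14 and 18.7 FPKM.

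With DMSO, 19 of 20 cytosolic genes had the lower level under the luminal label, against 47.5% of all genes lower by sign. The median log2((luminal FPKM + 1)/(basal FPKM + 1)) was -0.45 for the cytosolic set, -0.08 for the mitochondrial set and 0.01 for all genes. Cars, the cysteinyl enzyme, differed most, with 20.2 FPKM under the basal label and 8.57 FPKM under the luminal label, a ratio of 0.424 (95% counting interval 0.395 to 0.455). Iars, the isoleucyl enzyme, had 43.2 and 21.4 FPKM, and Rars, the arginyl enzyme, had 59.4 and 30.2 FPKM. Yars was the exception, with 8.70 and 8.87 FPKM and an interval of the ratio that held 1 (0.934 to 1.11). Of the cytosolic genes, 7 were lower by more than 1.5-fold under the luminal label, against 9.95% of all genes. With baicalin 16 of 20 were lower there, against 54.8% of all genes by sign, with a median of -0.23, and 2 were lower by more than 1.5-fold, against 9.46% of all genes. The mitochondrial set was about as low there with baicalin, with 14 of 17 genes lower and a median of -0.27. Intervals were computed by the exact Clopper-Pearson method on the fragments of each gene, and they cover counting error only, not differences between cultures.

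With baicalin, most cytosolic synthetases were higher in both pairs of libraries and the mitochondrial set was not. In the libraries labelled luminal, 16 of 20 cytosolic genes were higher with baicalin by sign, against 45.6% of all genes, with a median log2((baicalin FPKM + 1)/(DMSO FPKM + 1)) of 0.50 against -0.02 for all genes. In those labelled basal 14 of 20 were higher, against 50.9% of all genes, with a median of 0.32 against 0.01. Of the 20, 9 were higher by more than 1.5-fold under the luminal label, against 6.3% of all genes, and 5 under the basal label, against 7.24% of all genes. Without the added 1 FPKM these shares of all genes were 16.0% (luminal) and 19.3% (basal), while the cytosolic counts did not exceed 9 and 5. Under the luminal label Cars and Aars passed a log2 change of 1 upwards, as 2.37% of all genes did, and under the basal label 0 synthetases did, against 2.15% of all genes. The whole cytosolic set held 2616 of every 1000000 fragments with DMSO and 3801 with baicalin under the luminal label, a ratio of 1.45 (1.44 to 1.47), and 3722 and 4644 under the basal label, a ratio of 1.25 (1.24 to 1.26). The share in the luminal baicalin library, 3801, was thus just above the 3722 of the basal DMSO library.

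Cars (ENSMUSG00000010755, chromosome 7, 143557230 to 143600090), which charges tRNA with cysteine, had the largest change under the luminal label. It had 8.57 FPKM with DMSO and 25.4 FPKM with baicalin, a ratio of 2.96 (2.77 to 3.17) and a log2 change of 1.46 that ranked 161 from the top among all 17787 genes. Its basal values were 20.2 and 33.1 FPKM, a ratio of 1.64 (1.56 to 1.72). The baicalin libraries of the 2 labels were thus closer to each other than the DMSO libraries. Aars (ENSMUSG00000031960, chromosome 8, 111033144 to 111057664), the alanyl enzyme, had 13.8 and 29.2 FPKM under the luminal label, a ratio of 2.12 (2.02 to 2.22). The basal values of Aars were 21.9 and 35.1 FPKM, a ratio of 1.60 (1.54 to 1.66). Its last 1326 exon bases are also all the exon bases of Exosc6, on the same strand. Exosc6 was listed at 0 in all 4 libraries. How fragments on shared bases were counted is not given in the sources used here, so this 0 does not show that Exosc6 was silent. The part of Exosc6 in the Aars values was not tested.

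Gars, Nars, Sars, Iars, Rars, Tars and Lars made up the rest of the 9. Gars (chromosome 6, 55038007 to 55079500), the glycyl enzyme of both compartments, had 32.8 FPKM with DMSO and 61.8 FPKM with baicalin under the luminal label, a ratio of 1.88 (1.78 to 1.99), and 60.7 and 81.0 FPKM under the basal label, a ratio of 1.34 (1.28 to 1.39). Nars had a ratio of 1.77 (1.72 to 1.82) under the luminal label and 1.35 (1.32 to 1.39) under the basal label. Sars (chromosome 3, 108424865 to 108445209), the seryl enzyme, had 43.2 and 74.7 FPKM under the luminal label and 58.2 and 93.7 FPKM under the basal label, and its ratios of 1.73 and 1.61 were close to each other. Iars, which shares 7.15% of its 50-base stretches with the processed pseudogene Gm4849, had luminal ratio 1.66 and basal ratio 1.34. Rars had 1.65 and 1.23, and Lars, the leucyl enzyme, 1.54 and 1.28, again with the luminal ratio first. Tars (chromosome 15, 11382301 to 11399665), the threonyl enzyme, differed between the labels. It had 20.2 and 31.9 FPKM under the luminal label, a ratio of 1.58 (1.5 to 1.67), and 29.0 and 29.1 FPKM under the basal label, a ratio of 1.0 (0.956 to 1.05).

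Under the basal label the 5 genes past 1.5-fold were Wars, Cars, Sars, Yars and Aars. Wars (ENSMUSG00000021266, chromosome 12, 108860030 to 108894174), the tryptophanyl enzyme and the synthetase best known for its induction by interferon, had 16.2 FPKM with DMSO and 32.0 FPKM with baicalin, a ratio of 1.97 (1.83 to 2.12). The luminal values of Wars were 11.8 and 17.4 FPKM, a ratio of 1.47 (1.35 to 1.61). Yars (chromosome 4, 129189760 to 129219607) had 8.70 and 14.4 FPKM under the basal label, a ratio of 1.65 (1.53 to 1.79), and 8.87 and 12.4 FPKM under the luminal label, a ratio of 1.40 (1.30 to 1.52). Eprs, whose protein joins the glutamyl and prolyl enzymes in 1 chain, had 18.2 and 25.1 FPKM under the basal label and 16.8 and 20.2 FPKM under the luminal label. Wars, Yars and Eprs were the cytosolic genes with the larger change under the basal label by more than 0.1 on the log2 scale. Mars, the methionyl enzyme, had ratios of 1.16 (basal) and 1.41 (luminal). It overlaps Ddit3, a stress-response transcription factor gene on the opposite strand, over 68 of its 3423 exon bases, and Ddit3 was higher with baicalin, at 9.76 and 38.9 FPKM (basal) and 12.7 and 24.6 FPKM (luminal). Whether counting used the strand is not given in the sources used here, so the part that Ddit3 fragments play in the Mars value was not tested.

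**Figure D2:**
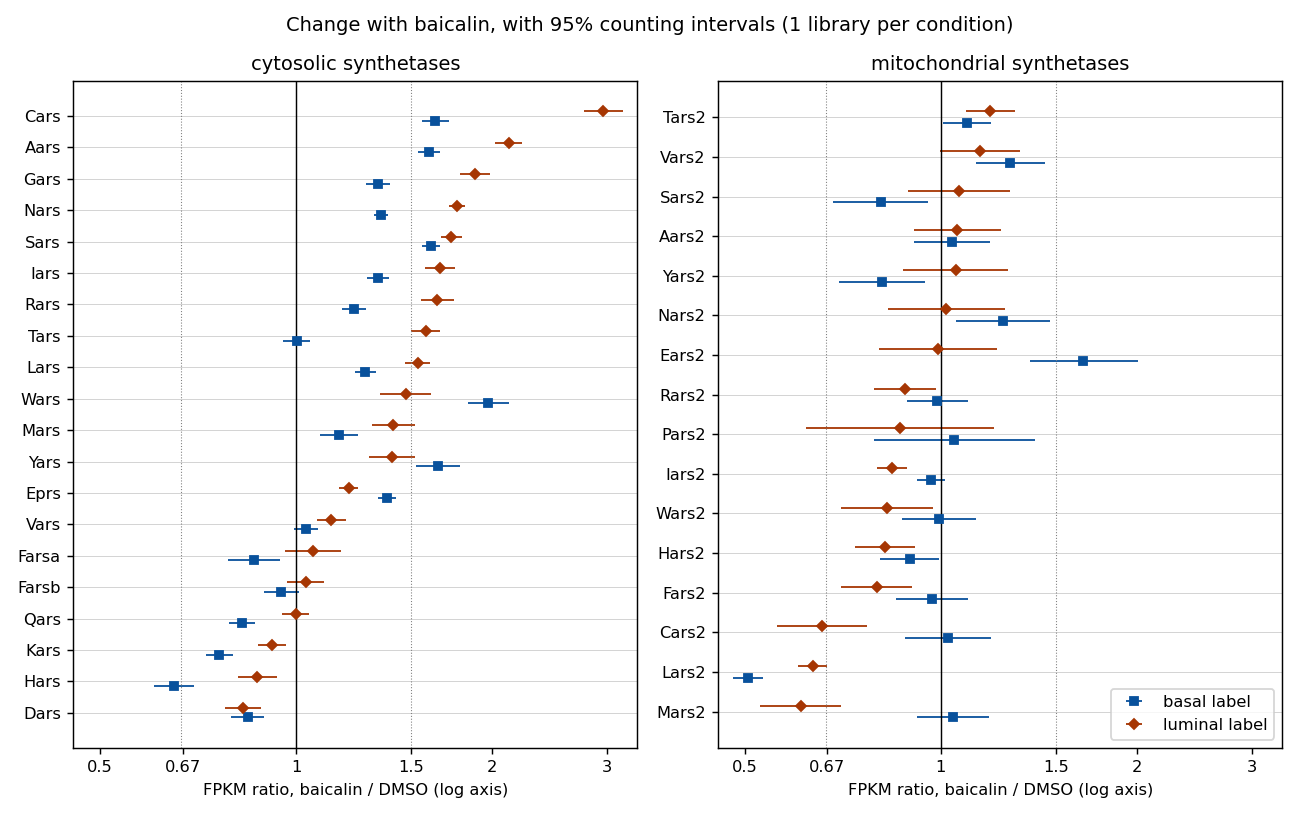
FPKM ratio of baicalin to DMSO for 20 cytosolic and 16 mitochondrial synthetase genes on a log axis, with bars for the exact 95% counting interval and dotted lines at 1.5-fold. Cars reaches 2.96 under the luminal label, and most cytosolic genes lie to the right of 1, while most mitochondrial genes lie at or left of 1 under the luminal label.

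Not all cytosolic genes were higher. Under the basal label the interval of the ratio lay above 1 for 12 cytosolic genes, below 1 for 5 and held 1 for 3, against 32% above and 29.9% below of the 15006 genes with more than 3 fragments in each library. Under the luminal label the counts were 14 above, 3 below and 3 holding 1, against 25.6% above and 32.6% below of the same 15006 genes. Intervals narrow as fragments rise, so genes of high level exclude 1 more readily. In the basal DMSO library the cytosolic median was 34.3 FPKM, against 3.67 FPKM for all 17787 genes. The shares over the 15006 genes are thus not matched for level. Dars, Hars and Kars lay below 1 under both labels. Hars (ENSMUSG00000001380, chromosome 18, 36766528 to 36783205), the histidyl enzyme, had the lowest change of the cytosolic set under the basal label and the only one past 1.5-fold downwards. It had 40.1 FPKM with DMSO and 26.1 FPKM with baicalin there, a ratio of 0.651 (0.606 to 0.699), and 37.2 and 32.4 FPKM under the luminal label, a ratio of 0.872 (0.815 to 0.934). Kars, the lysyl enzyme of both compartments, had 44.2 and 33.7 FPKM under the basal label and 37.4 and 34.3 FPKM under the luminal label. Dars, the aspartyl enzyme, had ratios of 0.843 and 0.829. Qars, the glutaminyl enzyme, had a ratio of 0.827 (0.790 to 0.866) under the basal label and 0.999 (0.952 to 1.05) under the luminal label. The 2 subunit genes of the phenylalanyl enzyme stayed within 1.16-fold, with Farsa at 0.862 (basal) and 1.06 (luminal) and Farsb at 0.949 and 1.04. Vars, the valyl enzyme, had 1.04 and 1.13.

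The cytosolic genes were also grouped by what is known of their proteins. Dars, Eprs, Iars, Kars, Lars, Mars, Qars and Rars are the synthetases of the multisynthetase complex. Of these 8, 5 were higher under each label, near the 50.9% (basal) and 45.6% (luminal) of all genes, with median log2 changes of 0.25 (basal) and 0.36 (luminal), and 0 (basal) and 3 (luminal) passed 1.5-fold upwards, against 7.24% and 6.3% of all genes. Of the 12 genes outside the complex, 9 (basal) and 11 (luminal) were higher, with medians of 0.42 and 0.58, and 5 and 6 passed 1.5-fold upwards. The synthetases fall into 2 families with unrelated active sites, class I and class II. With Eprs left out because it holds a domain of each class, the 9 class I genes had medians of 0.35 (basal) and 0.52 (luminal) and the 10 class II genes had -0.03 and 0.36. These groups are small and were not tested. Of the 13 cytosolic genes with a promoter window, the 5 with the motif had log2 changes between 0.00 and 0.66 with a median of 0.41 under the basal label, and between 0.45 and 1.03 with a median of 0.71 under the luminal label. The 8 without it ranged from -0.38 to 0.68 with a median of -0.14 (basal) and from -0.26 to 0.78 with a median of 0.06 (luminal). Both ranges overlapped, and Sars was the highest of those without the motif. Cars, Hars, Lars, Nars, Rars, Vars and Wars had no window in the table.

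The mitochondrial synthetases gave another picture. With baicalin 8 of 17 were higher and 9 lower under the basal label, against 49.1% of all genes lower by sign, at a median log2 change of -0.01. Under the luminal label 6 were higher and 11 lower, against 54.4% of all genes lower, at a median of -0.17. With 1 FPKM added, as in all counts past 1.5-fold, none passed 1.5-fold upwards under either label. The 1 gene past 1.5-fold downwards under each label, against 7.78% (basal) and 6.01% (luminal) of all genes, was Lars2. Under the luminal label the interval of the ratio lay below 1 for 9 of 17 mitochondrial genes, against 32.6% of the 15006 genes, and above 1 for Tars2, against 25.6%. Under the basal label it lay below 1 for 5 and above 1 for 4, close to or under the shares of 29.9% and 32% over the 15006 genes. The whole set held 665 of every 1000000 fragments with DMSO and 541 with baicalin under the luminal label, a ratio of 0.814 (0.794 to 0.835), and 712 and 609 under the basal label, a ratio of 0.856 (0.835 to 0.877).

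Lars2 (ENSMUSG00000035202, chromosome 9, 123366927 to 123462666), the mitochondrial leucyl enzyme, decided much of this sum. It had 18.7 FPKM with DMSO and 9.48 FPKM with baicalin under the basal label, a ratio of 0.506 (0.480 to 0.533), and 17.7 and 11.3 FPKM under the luminal label, a ratio of 0.636 (0.605 to 0.669). It held 29.2% and 29.6% of the mitochondrial set's fragments in the DMSO libraries. Without Lars2 the ratio of the set was 1.0 (0.973 to 1.03) under the basal label and 0.889 (0.863 to 0.916) under the luminal label. Gm42418, a gene on chromosome 17 at the ribosomal RNA repeat that was looked up after these values were seen, went the same way, with 572 and 276 FPKM under the basal label and 620 and 291 FPKM under the luminal label. Its part in the Lars2 values was not tested.

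Cars2 and Mars2 were lower under the luminal label, with basal intervals that held 1. Cars2, the mitochondrial cysteinyl enzyme, had 2.76 FPKM with DMSO and 1.81 FPKM with baicalin there, a ratio of 0.658 (0.561 to 0.771), and 2.32 and 2.38 FPKM under the basal label, a ratio of 1.03 (0.880 to 1.20). Cars2 overlaps Naxd on the opposite strand over 422 of its 7237 exon bases, and Naxd, whose part in the Cars2 value was not tested, had ratios of 1.14 (basal) and 0.721 (luminal). Mars2, the mitochondrial methionyl enzyme, had 2.28 and 1.39 FPKM under the luminal label, a ratio of 0.610 (0.529 to 0.703), and 2.17 and 2.27 FPKM under the basal label, a ratio of 1.04 (0.920 to 1.18). On the scale with 1 FPKM added, neither passed 1.5-fold. Hars2 had ratios of 0.896 and 0.821. Iars2, whose exons share 2034 bases with Rab3gap2 on the opposite strand, had 0.964 and 0.841. Fars2, Rars2 and Wars2 had luminal ratios of 0.797, 0.880 and 0.828, each with an interval below 1, and basal ratios whose intervals held 1.

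Of the mitochondrial genes that were higher, Ears2, the mitochondrial glutamyl enzyme, had 1.73 FPKM with DMSO and 2.86 FPKM with baicalin under the basal label, a ratio of 1.65 (1.37 to 2.0) that rested on 177 fragments in the DMSO library. Its luminal values were 1.83 and 1.80 FPKM, a ratio of 0.989 (0.803 to 1.22). Tars2, the threonyl enzyme, was the mitochondrial gene whose interval lay above 1 under both labels, with ratios of 1.10 (1.01 to 1.20) and 1.19 (1.09 to 1.30). Vars2 had 1.28 (1.13 to 1.45) under the basal label and 1.15 (0.996 to 1.32) under the luminal label, and Nars2 had 1.25 (1.06 to 1.47) and 1.02 (0.830 to 1.25). Sars2 and Yars2 were lower under the basal label, with ratios of 0.808 (0.683 to 0.955) and 0.812 (0.699 to 0.944), and their luminal intervals held 1. The intervals of Aars2 and Pars2 held 1 under both labels, and the basal interval of Pars2, with 99 fragments in the basal DMSO library, ran from 0.789 to 1.39.

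For 17 amino acids a cytosolic and a mitochondrial gene could be set side by side, as 18 pairs because Farsa and Farsb share Fars2, and with Eprs used for both glutamate and proline. The cytosolic gene had the higher level in all 18 pairs in each library. Under the luminal label the log2 change of the cytosolic gene was above that of its mitochondrial partner in 18 of 18 pairs, with a median difference of 0.56. The count was 17 with 0.1 FPKM or nothing added and with scaling to TPM, because the pair of Vars turned. Under the basal label this held for 12 of 18 pairs, with a median difference of 0.26. The pair with the largest difference was Cars with Cars2 under the luminal label, 1.46 against -0.42, and Lars with Lars2 under the basal label, 0.35 against -0.91. The smallest difference under the luminal label was that of Vars with Vars2, 0.17 against 0.16 with 1 FPKM added, while their FPKM ratios of 1.13 and 1.15 stood in the other order, and that of Hars with Hars2, -0.19 against -0.25, was also small. Hars and Hars2 are neighbours on chromosome 18 that start in opposite directions and share 195 exon bases. The 6 pairs with the lower cytosolic change under the basal label were those of Hars, Vars, Farsa, Farsb, Tars and, for glutamate, Eprs. Nars with Nars2 had the widest gap in level, 66.8-fold in the basal DMSO library and 107-fold in the luminal baicalin library.

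**Figure D3:**
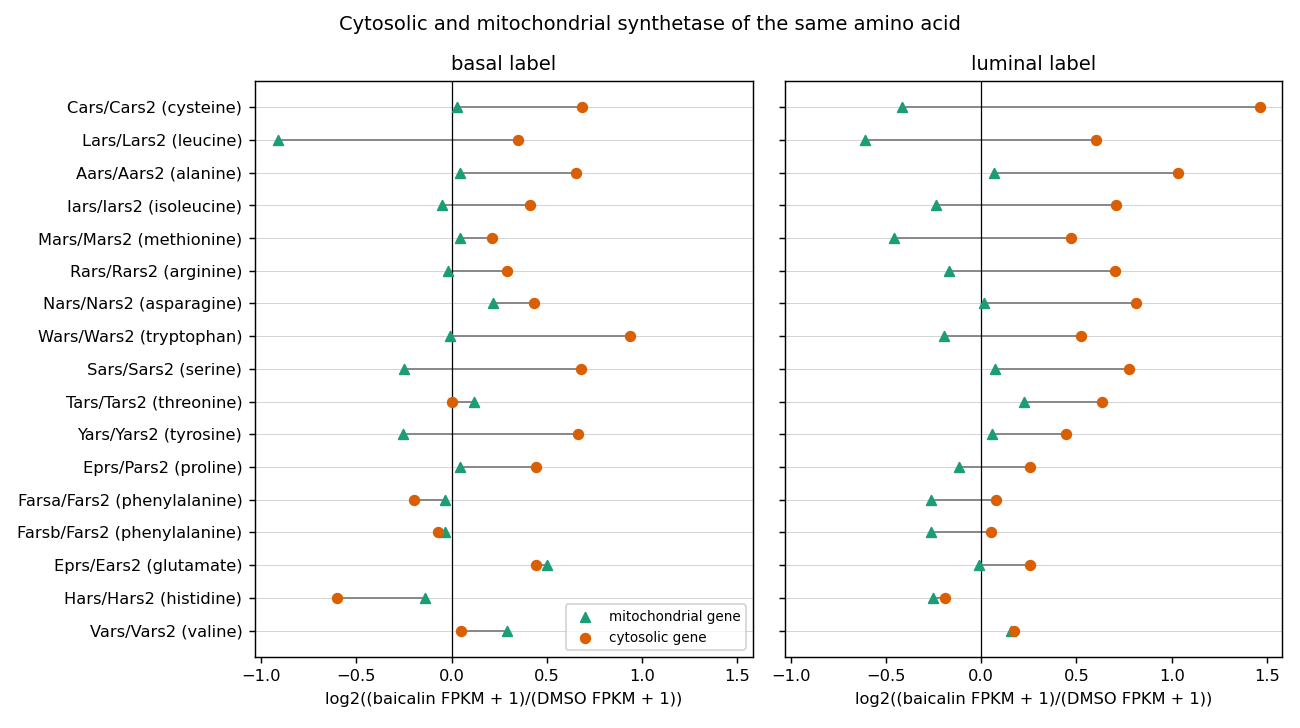
Log2 change with baicalin, with 1 FPKM added, of the cytosolic gene (circles) and the mitochondrial gene (triangles) for the same amino acid, 17 pairs in rows and 1 panel per library label. Every circle drawn lies right of its triangle under the luminal label, and under the basal label those of Hars, Vars, Farsa, Farsb, Tars and, with Ears2, Eprs do not.

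The change of the same gene was then set side by side between the 2 labels. Among cytosolic genes 14 were higher under both labels and 4 lower under both (Dars, Hars, Kars and, at a luminal log2 change of -0.00, Qars). Of all genes, 50.9% (basal) and 45.6% (luminal) were higher under each label taken alone. The share with the same sign under both was not counted, so the agreement between labels cannot be judged. Of the 20 cytosolic genes, 16 had the larger log2 change under the luminal label, against 45.2% of all genes. The largest differences, luminal minus basal, were 0.78 for Cars, 0.63 for Tars and 0.48 for Gars. Cars and Tars differed by more than 1.5-fold, against 9.03% of all genes. At the other end Wars had -0.41, with ratio intervals of 1.83 to 2.12 (basal) and 1.35 to 1.61 (luminal). Among mitochondrial genes 5 of 17 had the larger change under the luminal label, against 45.2% of all genes. The lowest differences were -0.51 for Ears2, -0.50 for Mars2 and -0.44 for Cars2, all genes of low level whose intervals are given above. No member had intervals on opposite sides of 1 under the 2 labels, as 12.3% of the 15006 genes did. With 1 library per condition, the difference between labels was not tested.

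**Figure D4:**
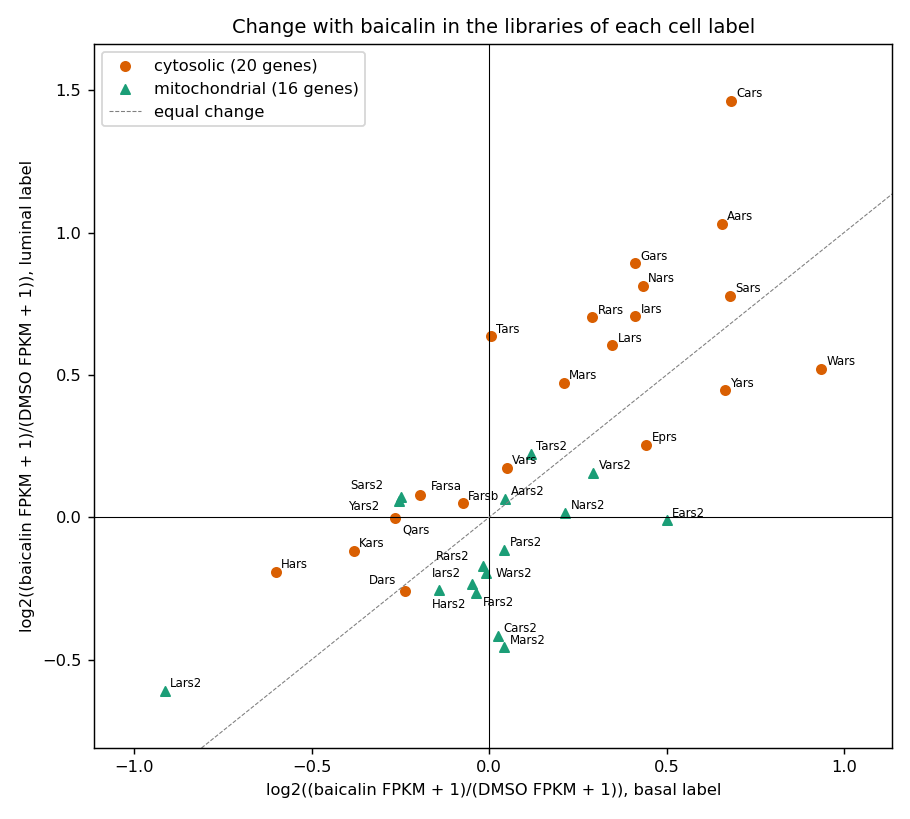
Log2 change with baicalin of 20 cytosolic and 16 mitochondrial synthetase genes under the basal label (x axis) and the luminal label (y axis), with 1 FPKM added and a dashed line of equal change. Cytosolic genes (circles) lie mostly above the dashed line and reach 1.46 for Cars, while mitochondrial genes (triangles) lie mostly below it and Lars2 is lowest under both labels.

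Genes that work beside the synthetases were read from lists written from general knowledge. Aimp1, Aimp2 and Eef1e1 encode the 3 scaffold proteins of the multisynthetase complex. Aimp1 had 11.5 FPKM with DMSO and 13.4 FPKM with baicalin under the basal label and 11.8 and 11.5 FPKM under the luminal label. Aimp2 had 16.9 and 11.2 FPKM (basal) and 9.37 and 10.7 FPKM (luminal), and Eef1e1 had 12.05 and 10.9 FPKM (basal) and 5.49 and 7.32 FPKM (luminal). The scaffold list had median log2 changes of -0.13 (basal) and 0.18 (luminal), below the 0.25 and 0.36 of the complex's synthetases. Among the enzymes that complete mitochondrial charging, Gatb and Gatc of the glutamine amidotransferase had ratios of 1.54 and 1.07 (basal) and 1.15 and 0.778 (luminal). Qrsl1, the other subunit gene, had 0.835 and 0.960, and Mtfmt, which formylates initiator methionyl-tRNA, had 1.01 and 0.989. Of 10 mitochondrial translation factors, 5 (basal) and 2 (luminal) were higher with baicalin, against 50.9% and 45.6% of all genes, with medians of 0.01 and -0.14. Mtif2, the initiation factor, had ratios of 0.756 and 0.747, and Tufm, the elongation factor that delivers charged tRNA, had 0.857 and 0.845.

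In the cytosol, elongation factors take charged tRNA to the ribosome. Of the 5 genes listed 4 were higher with baicalin under each label, against 50.9% (basal) and 45.6% (luminal) of all genes. The medians of the 5 were 0.44 (basal) and 0.10 (luminal), against 0.01 and -0.02 for all genes. Eef1a1 had 3777 and 5110 FPKM under the basal label and 4881 and 5162 FPKM under the luminal label. Eef2, the translocation factor, had 865 and 1435 FPKM (basal) and 1281 and 1390 FPKM (luminal). Eef1b2 and Eef1g had ratios of 1.36 and 1.12 (basal) and 1.07 and 1.27 (luminal), and Eef1d had 0.915 and 0.868. The cytosolic synthetases thus had the larger median under the luminal label and the elongation factors the smaller.

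The amino acid response genes are regulated by ATF4, as many cytosolic synthetases are. By sign all 12 were higher with baicalin under both labels, against 50.9% (basal) and 45.6% (luminal) of all genes, with median log2 changes of 0.97 (basal) and 1.16 (luminal), and 8 and 10 passed 1.5-fold upwards, against 7.24% and 6.3% of all genes. The interval lay above 1 for 11 of 12 (basal) and 12 of 12 (luminal), the exception being Psat1, an enzyme of serine synthesis, with a basal ratio of 1.04 (0.977 to 1.10). Atf4 had 141 and 224 FPKM under the basal label and 117 and 195 FPKM under the luminal label. Asns, which makes asparagine, the amino acid that Nars loads, had 32.9 and 66.1 FPKM (basal) and 20.4 and 52.7 FPKM (luminal). Trib3, a feedback inhibitor of ATF4, had ratios of 4.49 (basal) and 6.46 (luminal), from 20.2 and 4.98 FPKM with DMSO. Chac1, which degrades glutathione, had the highest FPKM ratios, 5.01 (4.00 to 6.33) and 11.4 (7.43 to 18.2), from 2.86 and 0.726 FPKM with DMSO. The luminal ratio rested on 23 fragments in the DMSO library. With 1 FPKM added, Trib3 had the larger log2 change, 2.11 against 1.99 (basal) and 2.47 against 2.42 (luminal). This list, which includes Atf4 itself, was known from earlier results of these data to be higher with baicalin, so its rise is no independent result. The part of ATF4 in the synthetase changes was not tested. Of the 4 kinases that start the response by phosphorylating eIF2α, 1 (basal) and 2 (luminal) were higher, against 50.9% and 45.6% of all genes. Their median log2 changes were -0.14 (basal) and -0.01 (luminal). Eif2ak3 was the 1 kinase past 1.5-fold upwards, under the luminal label, against 6.3% of all genes. It had a ratio of 1.58 (1.45 to 1.72) there and 0.818 (0.761 to 0.879) under the basal label. Eif2ak4, the sensor of uncharged tRNA, had 6.57 and 6.53 FPKM (basal) and 7.59 and 7.70 FPKM (luminal), with both intervals holding 1. Eif2ak1 had ratios of 1.06 and 0.967, and Eif2ak2, the interferon-induced kinase, had 0.436 and 0.755.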

How the data were processed

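RNA of 4 libraries was enriched with oligo (dT) beads and made into stranded libraries. The authors aligned reads with HISAT2 to GRCm38, counted them per gene with featureCounts on Ensembl release 94 and deposited FPKM. Per the labels' processing notes, Bowtie 0.12.2 and the build mm8 are also named, without a role. GENCODE mouse annotation 21 (GRCm38) supplied positions, overlaps and exon lengths, the last for 54409 of 54446 genes. FPKM times exon length fell on steps of 1 fragment, whole within 0.1 for 98.8% to 99.0% of low genes, which gave each library's depth and the fragments behind each gene. For Hars, Lars and Nars they were not whole within 0.1, so these are approximate. The fragments gave exact 95% Clopper-Pearson intervals, over the 15006 genes with more than 3 fragments in each library, and the share of each library held by the synthetase sets. Sequencing depth limits only this counting error.

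Changes were log2 ratios with 1 FPKM added, over the 17787 genes above 0 in all 4 libraries, with thresholds of 1.5-fold and 1 on the log2 scale. No test was made, since each condition has 1 library. Genes were named by rule: every member but 1, with full values for the members past 1.5-fold, the largest rises and falls, the pairs with the largest and smallest difference, those that differ most between labels and companion lists of under 6 genes. Members and lists were chosen with earlier results of these data known. Copies were genes sharing 50-base stretches. Promoter windows came from RefSeq on GRCm38.p6. Alternatives were other pseudocounts, filters and scalings, and leaving out members with overlapping genes or copies, Gars and Kars, or Lars2. The computation was tested on simulated data. Computation used scipy 1.17.1, numpy 2.4.6 and pandas 2.3.3 under Python 3.11.15, and plots matplotlib 3.10.9. The remaining member, which stays in all counts and medians, and 1 promoter match are not reported here.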

Additional observations from a re-analysis of the deposited data

Results flagged for a closer look

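The genes searched were the 37 synthetases, the genes listed beside them and the overlapping genes with printed values. The lists held 12 amino acid response genes, 10 mitochondrial translation factors, 6 related genes, 5 elongation factors, 4 kinases, 4 genes of mitochondrial charging and 3 scaffold genes. Of all these, 3 genes lay on opposite sides of 1 under the 2 labels, with both counting intervals excluding 1. Of the 15006 genes with more than 3 fragments in each library 12.3% did so, a larger share than among the genes searched. The difference between labels was not tested, since each condition has 1 library. Eif2ak3, the eIF2α kinase of the endoplasmic reticulum, had 13.9 FPKM with DMSO and 11.4 FPKM with baicalin under the basal label, a ratio of 0.818 (0.761 to 0.879), and 7.43 and 11.8 FPKM under the luminal label, a ratio of 1.58 (1.45 to 1.72). Its log2 change was 0.87 larger under the luminal label. Guf1, a mitochondrial translation factor, had 2.74 and 3.23 FPKM under the basal label, a ratio of 1.18 (1.05 to 1.32), and 3.58 and 2.65 FPKM under the luminal label, a ratio of 0.739 (0.661 to 0.826). The luminal minus basal difference of its log2 changes was -0.50. Naxd, which overlaps Cars2, had 10.4 and 11.8 FPKM under the basal label, a ratio of 1.14 (1.04 to 1.24), and 13.6 and 9.78 FPKM under the luminal label, a ratio of 0.721 (0.662 to 0.785), and its difference was -0.60.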

How the results depend on the processing

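Across the alternatives the cytosolic median change with baicalin lay between 0.29 and 0.32 (basal) and between 0.50 and 0.53 (luminal), and the mitochondrial median between -0.04 and 0.01 (basal) and between -0.21 and -0.11 (luminal). The pair of Vars turned its direction under the luminal label with 0.1 FPKM or nothing added and with scaling to TPM, which left 17 of 18 pairs. With a pseudocount of 0.1 FPKM, 1 mitochondrial gene (basal) was higher by more than 1.5-fold and 2 (luminal) were lower, with none they numbered 1 and 3, and with scaling to TPM 1 and 2. Without a pseudocount, 19.3% (basal) and 16.0% (luminal) of all genes were higher by more than 1.5-fold and 18.3% and 16.9% lower, against 7.24%, 6.3%, 7.78% and 6.01% with 1 FPKM added. TPM scaling moved the luminal minus basal medians to -0.58 (cytosolic, DMSO), -0.19 (mitochondrial, DMSO) and -0.31 (cytosolic, baicalin), while the median of all genes moved by -0.07 with DMSO. It moved the elongation factor median (basal) to 0.40, and centring moved it to 0.43. Without the 15 members that have overlapping genes or copies, 2 (basal) cytosolic genes were higher by more than 1.5-fold, 0 were lower, 0 (luminal) passed a log2 change of 1, the cytosolic change was the larger in 5 (basal) and 6 (luminal) of the 6 pairs left, and the mitochondrial luminal minus basal median with DMSO was -0.17. These counts fall because the members left out include Cars and Aars, the genes past a log2 change of 1, with Yars and Hars, which passed 1.5-fold under the basal label. Cars shares 211 of its 6583 exon bases with the pseudogene Gm15580, and Yars 30 of 5943 with C77080, both on the opposite strand. Their part in the Cars and Yars values was not tested. Without Lars2, chosen after seeing the data, 0 mitochondrial genes were lower by more than 1.5-fold under either label. No paired analysis was possible because each condition has 1 library.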

Other observations

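The 6 listed genes with synthetase-like or related roles outside the naming rule had low levels, with medians between 2.07 and 2.61 FPKM in the 4 libraries. Tarsl2, a second cytosolic threonyl-tRNA synthetase gene, had 2.77 FPKM with DMSO and 2.52 FPKM with baicalin under the basal label and 2.37 and 1.98 FPKM under the luminal label, levels far below those of Tars. Pstk and Sepsecs, which act in turn to make selenocysteinyl-tRNA, had ratios of 1.45 (1.21 to 1.73) and 1.25 (1.07 to 1.45) under the basal label, and luminal intervals that held 1. Dtd1, which removes wrongly attached D-amino acids from tRNA, and Dtd2 had ratios of 0.920 and 0.898 (basal) and 0.764 and 0.816 (luminal). Aarsd1, an editing factor for mischarged alanyl-tRNA, stayed at or below 0.231 FPKM in all 4 libraries, where no difference was detectable at this depth.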
